A study of Cocos nucifera and Zingiber officinale with 11 samples.

Results

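Exosome-like nanoparticles (ELNs) are small vesicles that can be pelleted from the juice or pulp of plants. The kiwifruit library held 117 miRNA names of the 418 listed over 11 edible plants, and they are described here as every name with a level above 0 in the kiwifruit column. The names fall into 53 of the 189 families listed, a family being the names that share a number. The question behind the series was which miRNAs such vesicles hold and how these differ between plants.

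The kiwifruit sample was the vesicle pellet of Kiwi (Actinidia chinensis), from juice squeezed by hand through gauze after peeling. Juice of blueberry, grapefruit, orange and pear was taken in the same way, while tissue of tomato, soybean, pea, Hami melon and ginger was ground in buffer. How coconut was handled was not stated in the sources used here, and the library called pea is titled as lima bean by one of its labels. No treatment, mutant or age was compared, and plant, way of taking the juice and library cannot be told apart. Each plant gave 1 library with no replicate, so no value below has a replicate error and no difference between plants was tested. Intervals are 95% Wilson intervals unless named otherwise, and they cover counting error only, which is too narrow where PCR copied a molecule.

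Levels were deposited in RPM, a read count scaled to a total per library, and the whole reads and the total behind them were recovered. That total is a part of the reads sequenced, and which reads it holds is not given in the sources used here. It was highest in kiwifruit, with 6518871 reads against a median of 1457858.5 reads in the other 10 libraries (range 236959 in ginger to 4836597 in orange), while by filtered high quality reads kiwifruit was not the deepest library. Of the recovered total, 377989 reads (5.80%) were assigned to miRNAs in kiwifruit, against a median of 5.14% in the other 10, from 0.294% in coconut to 53.3% in soybean. Because this part of a library differed so much between plants, each miRNA is given below as its share of the miRNA reads of its own library. No name in any library lay below 5 reads, which is 0.767 RPM in kiwifruit and 21.1 RPM in ginger, where the lowest name had 7 reads or 29.5 RPM. The reference names of the kiwifruit sequences came from 23 species codes of other plants, led by Medicago truncatula (mtr, 24 names), and no code was that of an Actinidia. The plant named on the label could therefore not be checked against names of its own.

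Plant miRNAs are cut from hairpin precursors by a Dicer enzyme, mostly as RNAs of a length set by that enzyme, and one arm of the hairpin is usually kept in an Argonaute protein while the other is lost. The 5p name stands for the arm at the start of the hairpin and 3p for the arm at its end. Old families such as MIR-156, MIR-159, MIR-166 and MIR-396 are shared by most land plants and act on transcription factor genes of growth and development. Others act on the silencing machinery, on nutrient supply or on resistance genes.

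The sequences that carried most of the kiwifruit reads are shown first, since they define what was counted under each name. They are the sequences listed in the deposited files, 5′ to 3′ with T for U, and the capitals mark the seed, bases 2 to 8.
mtr-MIR-396a-5p: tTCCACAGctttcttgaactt
mtr-MIR-159a: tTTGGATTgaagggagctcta
aly-MIR-166h-3p: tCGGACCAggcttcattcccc
gma-MIR-166h-3p: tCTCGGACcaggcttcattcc
mtr-MIR-162: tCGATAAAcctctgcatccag
bdi-MIR-5054: cCCCACGGtgggcgcca
mdm-MIR-7122a: tTATACAGagaaatcacggtcg
ath-MIR-403-3p: tTAGATTCacgcacaaactcg
mdm-MIR-535d: tGACGACGagagagagcactc
mtr-MIR-168c-5p: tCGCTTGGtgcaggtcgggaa

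These 10 names held 93.5% of the kiwifruit miRNA reads. The 7 names with 10000 reads or more held 88.2% and the next 11, with 1000 reads or more, held 8.91%. The seed TCCACAG of mtr-MIR-396a-5p was shared by osa-MIR-396h and the apple name (mdm) of MIR-396a, and these 3 names together held 186794 reads. The seed TTGGATT of mtr-MIR-159a was shared by osa-MIR-159f, for 62326 reads in all. The seed CGGACCA of aly-MIR-166h-3p was shared by cme-MIR-166i and ath-MIR-165a-3p, for 29045 reads, while gma-MIR-166h-3p started at another base and so had the seed CTCGGAC.

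The growth-regulating factor (GRF) family MIR-396 held more of the kiwifruit miRNA reads than any other family. GRF genes promote cell proliferation in leaves and other organs, and MIR-396 limits them. MIR-396 held 49.4% of the miRNA reads in kiwifruit (95% interval 49.3 to 49.6; 186890 reads), against a median of 1.75% in the other 10 libraries, from 0.0552% in grapefruit to 9.64% in Hami melon. The kiwifruit share was 28.3 times that median and 5.13 times the highest of the other 10, and it did not overlap their range. Nearly all of it was mtr-MIR-396a-5p, with 186765 reads or 28650 RPM in kiwifruit. This name was listed in 6 of the other 10 libraries, where its highest level was 1249 RPM, in orange. Its share in kiwifruit was 911 times the median of the other 10, but that ratio depends on a single base at the 3′ end. Ginger, Hami melon, pea and pear listed mtr-MIR-396b-5p instead, which kiwifruit did not list, and grapefruit listed both. The form of Hami melon, with 8383 reads, is shown against that of kiwifruit because only its last base differs.
mtr-MIR-396a-5p in kiwifruit: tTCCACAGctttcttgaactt
mtr-MIR-396b-5p in Hami melon: tTCCACAGctttcttgaactg

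Both forms have the same seed, so the comparison by family or by seed is the one that does not depend on the name. The other 4 MIR-396 names of kiwifruit were mtr-MIR-396b-3p with 89 reads, osa-MIR-396h with 22 reads, and the apple name (mdm) of MIR-396a and mtr-MIR-396a-3p with 7 reads each. The 5p arm had 186794 reads and the 3p arm 96 reads in kiwifruit, so that 99.9% was 5p, against a median of 96.5% in the other 10 (76.2% to 100%).

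**Figure D1:**
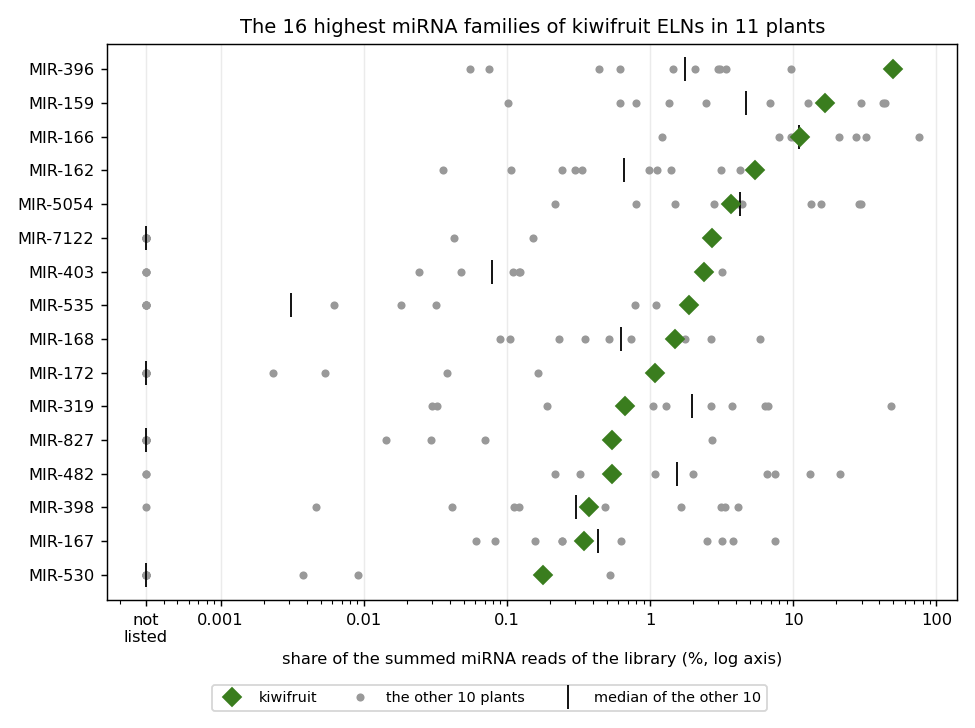
Share of the miRNA reads of each library (%, log axis) for the 16 highest families of kiwifruit ELNs. Diamonds are kiwifruit, grey points the other 10 plants with 1 library each, black ticks their median, and points at the left edge are libraries that did not list the family. MIR-396, MIR-162, MIR-7122, MIR-535 and MIR-172 lie right of every grey point, while MIR-159, MIR-166 and MIR-5054 lie among them.

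In all, 13 families had a higher share in kiwifruit than in each of the other 10 libraries, 6.88% of the 189 families, against a median of 14.5 such families (range 5 to 37) over the other plants. With every library brought to the lowest read total, the count in kiwifruit was 8, and the counts of the other plants were not computed there. At the full totals, the number of families in which a plant ranks first was thus not high in kiwifruit. Of the 13, 8 were listed elsewhere: MIR-396, MIR-162, MIR-7122, MIR-535, MIR-172, MIR-408, MIR-397 and MIR-391. For 6 of these the interval of kiwifruit lay clear of that of the next library, and for MIR-397 and MIR-391 the intervals overlapped. The other 5, MIR-5266, MIR-1150, MIR-6187, MIR-7725 and MIR-828, were listed in no other library, with 247, 45, 13, 6 and 5 reads in kiwifruit. The first 4 of these rest on short sequences of 15, 14, 16 and 14 nt. That of MIR-5266 was also the start of a sequence that 9 other libraries listed as zma-MIR-398b-5p, so MIR-5266 counts among the 13 by its name only. No family listed in kiwifruit, or anywhere in the table, had a lower share in kiwifruit than in each of the other 10 (0% of the 189 families). This could occur only for a family that all of the other 10 listed, such as MIR-319 or MIR-156. For most families it could not, so the 0% says little about kiwifruit.

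MIR-159, which acts on GAMYB-like genes of the gibberellin response, was the second family. It held 16.6% of the reads in kiwifruit, against a median of 4.67% in the other 10 (0.102% in tomato to 44.0% in Hami melon). Kiwifruit ranked 4 of 11 and lay well inside their range. Of its 4 names, mtr-MIR-159a had 62259 reads (9551 RPM) in kiwifruit, and its level was highest in soybean at 223926 RPM. The remaining names were gma-MIR-159a-5p with 237 reads, gma-MIR-159d with 137 reads and osa-MIR-159f with 67 reads. The name gma-MIR-159a-5p was listed in kiwifruit alone.

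MIR-166 and its near relative MIR-165 act on class III homeodomain leucine zipper genes, which set the polarity of organs and the pattern of vessels. MIR-166 held 11.2% in kiwifruit, against a median of 10.9% in the other 10 (1.22% in ginger to 75.3% in blueberry), so that kiwifruit ranked 6 of 11 by this share. That middle place did not hold without the families of tRNA-like or rRNA-like sequence. MIR-166 and MIR-165 together then held 11.7% in kiwifruit, against a median of 25.9% in the other 10. The leading names were aly-MIR-166h-3p with 28984 reads and gma-MIR-166h-3p with 10956 reads. The opposite arm, mtr-MIR-166g-5p, had 2295 reads, while cme-MIR-166i, osa-MIR-166i-5p, ath-MIR-165a-3p and osa-MIR-166e-3p had 47, 15, 14 and 11 reads.

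All 3 families with targets among the plant's own silencing genes were well represented. MIR-162 acts on the Dicer gene DCL1, MIR-168 on the Argonaute gene AGO1 and MIR-403 on AGO2. MIR-162 held 5.38% in kiwifruit (interval 5.31 to 5.45), against a median of 0.662% in the other 10, and its next highest share was 4.28% in pear (4.16 to 4.40). MIR-403 held 2.37% in kiwifruit, against a median of 0.0790%, but it was higher in blueberry at 3.19% and close to kiwifruit in orange at 2.29%. MIR-168 held 1.51% in kiwifruit, against a median of 0.630% in the other 10 (0.0894% in pea to 5.84% in coconut). By name, mtr-MIR-162 was listed in 9 of the other 10 libraries and reached 3116 RPM in kiwifruit, against 1415 RPM in pear, the highest of the others. Together the 9 names of the group held 9.25% in kiwifruit (9.16 to 9.35), against a median of 2.81% in the other 10 and 8.98% in coconut (8.19 to 9.85). Kiwifruit ranked first of 11, but its interval overlapped that of coconut, and without the families of tRNA-like or rRNA-like sequence coconut was higher (9.65% in kiwifruit and 14.4% in coconut).

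MIR-7122, a family described in apple and its relatives, was listed in few plants and was far higher in kiwifruit than in the others that listed it. The name mdm-MIR-7122a had 10270 reads or 1575 RPM in kiwifruit, 2.72% of its miRNA reads. Among the other 10 only pear, at 0.153%, and blueberry, at 0.0428% with 35 reads, listed it, and both gave the kiwifruit sequence. The kiwifruit share was 17.8 times that of pear. The legume family MIR-1509, grouped with it, had 6 reads in kiwifruit as gma-MIR-1509a, while its share was highest in pea at 3.58%.

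MIR-535, MIR-156 and MIR-157 act on SPL genes, which time the passage from juvenile to adult growth and flowering. In kiwifruit this group was carried by MIR-535, with 1.88% of the reads, against a median of 0.00311% in the other 10 (not listed in 5, highest 1.10% in coconut). Its leading name mdm-MIR-535d had 6429 reads, followed by osa-MIR-535-5p with 589 reads and mdm-MIR-535b with 98 reads. MIR-156 held only 0.0902% over 7 names in kiwifruit, against a median of 0.718% in the other 10 (0.0405% in grapefruit to 10.9% in pea). MIR-157 held 0.0526% in kiwifruit and a median of 0.101% in the other 10. The SPL group as a whole, 2.03% in kiwifruit against a median of 1.41%, therefore hid a high MIR-535 beside a low MIR-156.

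MIR-172 acts on APETALA2-like genes of flowering and flower organs. It held 1.08% in kiwifruit over 5 names, and it was listed in 4 of the other 10 libraries, with 0.166% in orange, 0.0382% in pear, 0.00535% in tomato and 0.00232% in grapefruit. Kiwifruit was thus 6.53 times as high as the next plant. MIR-169, which acts on NF-YA genes, held 0.0876% over 7 names in kiwifruit, against a median of 0.0134% in the other 10 and 1.90% in soybean. The 4 leading MIR-172 sequences are shown because both arms of this family were high.
gra-MIR-172a: gCGGCATCattaagattcac
mtr-MIR-172c-5p: gTAGCATCatcaagattcac
ath-MIR-172b-3p: aGAATCTTgatgatgctgcat
gma-MIR-172d: gGAATCTTgatgatgctgcag

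The 5p names gra-MIR-172a and mtr-MIR-172c-5p had 1729 and 665 reads, and the 3p names ath-MIR-172b-3p and gma-MIR-172d had 1659 and 36 reads. Over 18 or more bases the 5p sequences were the reverse complement of ath-MIR-172b-3p with 2 or 3 mismatches, as the arms of a hairpin are. The name gra-MIR-172a carries no arm and was set to 5p by its match to ata-MIR-172c-5p. It differed from its reference at T8C and C11T, where the reference base stands first, its position is counted from the 5′ end of the reference, and the base listed in kiwifruit follows.

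Of the copper families, which act on laccases, plantacyanin and superoxide dismutases, MIR-398 held 0.372% in kiwifruit, near the median of 0.303% in the other 10, while mtr-MIR-398c, its 3p arm, had 1366 reads. MIR-408 held 0.0767% in kiwifruit, against a median of 0.00389% and a highest share of 0.0269% in blueberry. Its main name in kiwifruit, smo-MIR-408 with 272 reads, was listed there alone, but its sequence held the shorter forms that blueberry and soybean listed as ppt-MIR-408b and tomato as mtr-MIR-408-3p. MIR-397 held 0.0426% in kiwifruit and 0.0285% in Hami melon, the only other library that listed it. As a group the copper families held 0.491% in kiwifruit, above the median of 0.306% in the other 10. Without the families of tRNA-like or rRNA-like sequence the group was below the median, with 0.512% against 0.878%.

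Of the phosphate and sulphate families, osa-MIR-827, which acts on SPX domain genes, had 2063 reads (0.546%) in kiwifruit, against 2.72% for its family in orange and no listing in 6 of the other 10. MIR-399, which acts on the phosphate gene PHO2, held 0.0468% over 4 names in kiwifruit, against a median of 0.0114%, and MIR-395, which acts on sulphate genes, held 0.0257% against 0.00452%. For both, orange or soybean was higher than kiwifruit. The name mtr-MIR-2111d-3p had 61 reads.

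The resistance, TCP and auxin groups were below the median of the other 10 in kiwifruit. The NBS-LRR group, which acts on disease resistance genes, held 0.549% in kiwifruit, against a median of 4.97% in the other 10 and 21.1% in orange. It was almost wholly sly-MIR-482a with 2060 reads, beside gma-MIR-1507a with 10 reads and osa-MIR-2118i with 6 reads. MIR-319, which acts on TCP genes of leaf growth, held 0.672% over 7 names in kiwifruit, against a median of 1.97% and 48.2% in ginger. The auxin families MIR-160, MIR-167, MIR-390, MIR-391 and MIR-393 together held 0.529% over 11 names in kiwifruit, against a median of 1.55%. Within them, sly-MIR-167b-5p led with 754 reads and ath-MIR-390a-5p followed with 550 reads. The families of this group differed. MIR-167 held 0.346% in kiwifruit against a median of 0.436%, and MIR-393 held 0.0124% against 0.0171%. MIR-390 at 0.156%, MIR-160 at 0.00899% and MIR-391 at 0.00556% were above their median of 0%. MIR-171, which acts on GRAS genes, held 0.0918% over 8 names in kiwifruit, also below the median of 0.180%. Some groups were instead above the median. MIR-164, which acts on NAC genes, held 0.131% over 4 names in kiwifruit against a median of 0.0901%. Without the families of tRNA-like or rRNA-like sequence it was below the median, with 0.137% against 0.146%. MIR-394, which acts on an F-box gene, was listed as gma-MIR-394f with 74 reads, 0.0196% in kiwifruit against a median of 0.00642%. The flavonoid MYB families were ath-MIR-858b with 372 reads and gma-MIR-828b with 5 reads in kiwifruit, 0.0997% together, against a median of 0% in the other 10. Kiwifruit ranked 2 of 11 for this group, after pear at 19.6%. As groups, all of these lay within the range of the other 10. Families outside the named groups held 0.291% over 10 names in kiwifruit, below each of the other 10 libraries (0.942% in blueberry to 13.6% in tomato). The highest of these names was osa-MIR-530-5p with 672 reads.

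Some plant miRNA entries look like parts of a tRNA or an rRNA, and these were kept apart by a list of families that was not tested against a genome. In kiwifruit 8 such names held 4.10% of the reads, against a median of 13.1% in the other 10 (1.15% in pea to 87.6% in grapefruit), and kiwifruit ranked 9 of 11. The name bdi-MIR-5054, with 13977 reads in kiwifruit, made up most of them, and its share of 3.70% was near the median of 4.23%. The name osa-MIR-5077 had 654 reads, 0.173% in kiwifruit against a median of 0.0739%. The remaining 6 were below their median: ath-MIR-8175 had 286, osa-MIR-5072 had 241, peu-MIR-2916 had 179, ptc-MIR-6478 had 76, cpa-MIR-8155 had 41 and gma-MIR-6300 had 28. The share of ptc-MIR-6478 was 0.0201% in kiwifruit, against a median of 2.64% in the other 10 and 35.8% in grapefruit. Since these reads take a very different part of each library, they move every other share.

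Among the 42 names with a median above 0 in the other 10 libraries, 7 names (16.7%) were 4-fold or more above that median in kiwifruit and 22 (52.4%) were at 0.25 of it or less. By RPM in place of share the counts were 7 higher and 19 lower, and on the scale log2(RPM + 10) they were 7 higher and 8 lower. On that last scale a name with a low median cannot be called low, even when kiwifruit did not list it. Its smaller count of low names therefore does not bear on their excess. The 7 were mtr-MIR-396a-5p, ath-MIR-403-3p, mtr-MIR-162, mtr-MIR-398c, mtr-MIR-168c-5p, mtr-MIR-168c-3p and ath-MIR-395a, with ratios from 4.97 for ath-MIR-395a to 911. Only 9 of the 22 low names were listed in kiwifruit, from cpa-MIR-8155 at 0.249 of the median to ptc-MIR-6478 at 0.00762, and the other 13 were not listed. These 13 included mtr-MIR-396b-5p and zma-MIR-398b-5p, whose near forms kiwifruit listed under other names. A name or family listed in few other libraries has a median of 0 and was left out, such as mdm-MIR-7122a and gra-MIR-172a. The counts of high and low names are thus not on an equal footing. The shares of a library sum to a fixed whole, of which MIR-396 took 49.4% in kiwifruit, and its part in the number of low names was not tested. Counted by family, 8 of 39 (20.5%) were 4-fold or more above the median in kiwifruit and 16 (41%) at 0.25 of it or less. The 8 families were MIR-535, MIR-403, MIR-396, MIR-408, MIR-162, MIR-169, MIR-395 and MIR-399.

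By the level that 2 libraries have in common, family by family, Hami melon was most like kiwifruit at 43.2%, followed by orange at 36.3% and pear at 32.0%, and ginger was least like it at 14.1%. This measure turned largely on MIR-396. With that family left out of both libraries, pea came first at 56.1%, before Hami melon at 54.1% and soybean at 50.1%. By name, kiwifruit shared most with orange, 51 names that made up 43.6% of the kiwifruit names and 45.9% of the orange names.

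**Figure D2:**
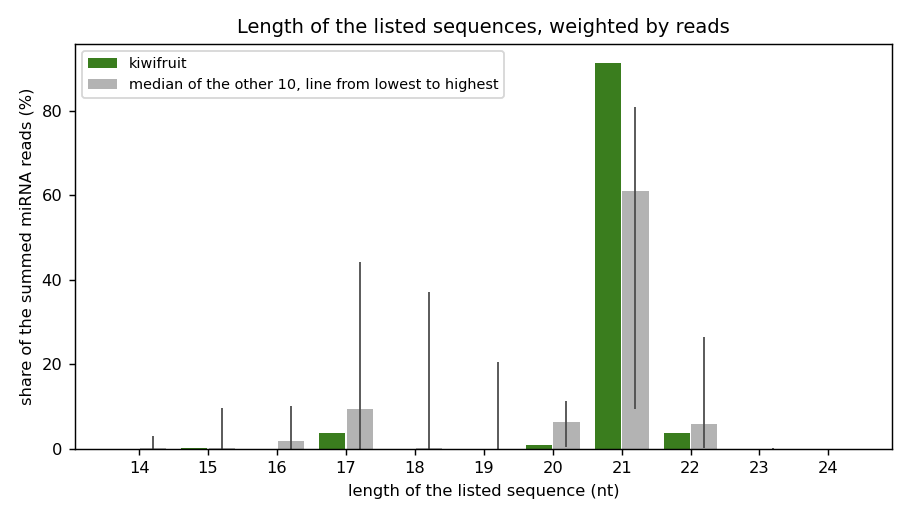
Share of miRNA reads (%) by length of the listed sequence (nt). Green bars are kiwifruit, grey bars the median of the other 10 plants, and lines run from their lowest to their highest library. The kiwifruit bar at 21 nt reaches 91.3% and stands above the top of its line, 81.0% in blueberry.

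The length of a plant miRNA reflects the Dicer that cut it. Each listed sequence was given the reads of its name, so the length is that of the most abundant form only. In kiwifruit 91.3% of the miRNA reads were of names at 21 nt (interval 91.2 to 91.4), against a median of 61.0% in the other 10 (9.47% in tomato to 81.0% in blueberry). Kiwifruit was the highest of the 11 libraries, and with MIR-396 left out the 21 nt names still held 82.9% of its remaining reads. Counted by names, 70 of 117 (59.8%) were 21 nt long. The 16 names at 22 nt held 3.78% in kiwifruit, mostly mdm-MIR-7122a, sly-MIR-482a and sly-MIR-167b-5p, against a median of 5.88% in the other 10. The 14 names at 20 nt held 0.883%, against a median of 6.24%, and 4 names at 19 nt had 177 reads together. Names under 18 nt held 3.97% in kiwifruit, against a median of 14.8% (0.465% in orange to 45.5% in coconut). These 12 short names were mostly bdi-MIR-5054 by reads. No kiwifruit name was 18 or 24 nt long.

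**Figure D3:**
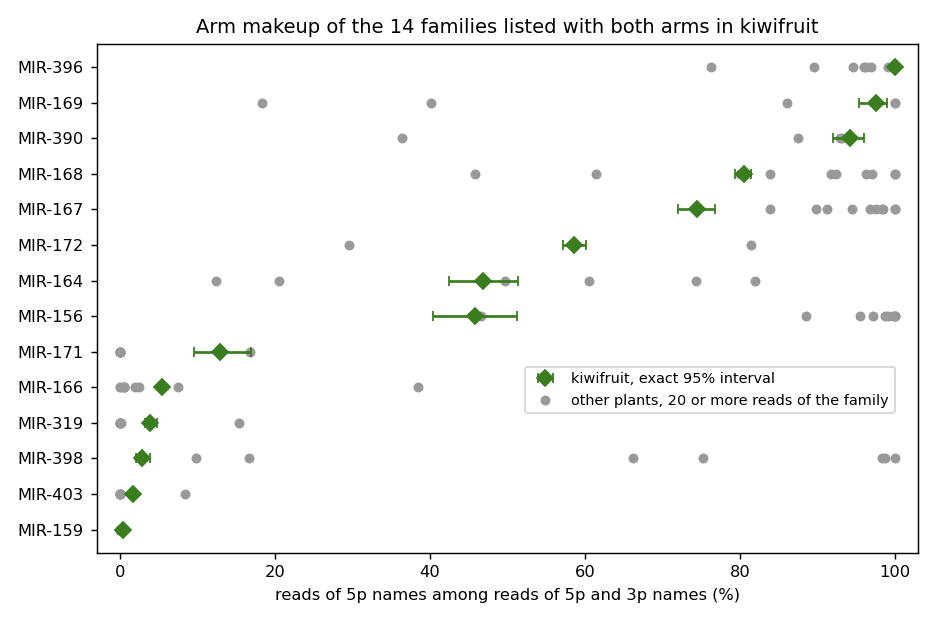
Reads of 5p names as a percentage of the 5p and 3p reads of a family, for the 14 families with names set to both arms in kiwifruit. Diamonds are kiwifruit with exact 95% binomial intervals (counting error only) and grey points are other plants with at least 20 reads of the family. MIR-164, MIR-156 and MIR-172 lie near the middle, and MIR-156, MIR-167 and MIR-398 lie left of every grey point, MIR-156 by 45.7% against 46.6%.

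Names set to both arms of a hairpin were listed for 14 families in kiwifruit. The arm was taken from the name for 61 names and from the match to a name with an arm for 29, and 27 names were left without one. Families whose main name had no arm are not among the 14, such as MIR-162. There ath-MIR-162b-5p, with 5 reads, was close to the reverse complement of mtr-MIR-162, with 20311 reads (20 bases, 3 mismatches). Of the names with an arm, 44 were 5p and 46 were 3p. The minor arm held at least 10% in 6 families. MIR-164 was nearly even, with 232 reads of 5p and 263 of 3p (46.9% 5p, exact interval 42.4 to 51.4). MIR-156 had 156 reads of 5p and 185 of 3p (45.7% 5p), whereas the median of the other 10 was 98.9% 5p and the lowest of them was 46.6%. That share depends on keeping MIR-157 apart by its number. The name ath-MIR-157c-5p, with 199 reads and the seed of mtr-MIR-156a, was counted under MIR-157. In turn, the sequence of mtr-MIR-156g-3p (18 reads) held the one that soybean listed as ath-MIR-157c-3p. The arm share of both families together was not computed. MIR-172 had 58.6% 5p in kiwifruit (57.1 to 60.1), between the only other libraries with 20 reads or more of the family, at 29.6% and 81.4%. It was 28.8% when only names that carry an arm were counted, since gra-MIR-172a then drops out.

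MIR-167 had 973 reads of 5p and 335 of 3p in kiwifruit, of which mdm-MIR-167a held 308. Its 74.4% of 5p (71.9 to 76.7) lay below each of the other 10, which had a median of 97.1% and a lowest value of 83.9%. MIR-168 had 4555 reads of 5p and 1108 of 3p, or 80.4% 5p, inside the range of the others (45.7% to 100%). MIR-171 had 45 and 302 reads and was mostly 3p. The remaining 8 families had a minor arm below 10%. MIR-390, MIR-169 and MIR-396 were mostly 5p, and MIR-166, MIR-319, MIR-398, MIR-403 and MIR-159 mostly 3p. MIR-159 showed 237 reads of 5p, 0.379% of its arm reads in kiwifruit, while the other 10 libraries listed no name of the family that was set to 5p. This leaves out MIR-159 names without an arm, which had 137 reads in kiwifruit, 69 in pea and 430 in soybean. Scaled to the read total of ginger, the kiwifruit reads of gma-MIR-159a-5p would be 8.61, and 53.0 at the median total of the other 10, above the 5 reads a name needs. This scales the level in kiwifruit and not the MIR-159 reads of each library, which ran from 62 in coconut to 118440 in soybean. Why the other libraries had no name set to 5p was not tested.

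For MIR-398 the arm share rested on how a sequence was named. It was 2.84% 5p in kiwifruit (40 reads of ptc-MIR-398c-5p against 1366 of mtr-MIR-398c), below the 9.75% to 100% of the 7 other libraries with 20 reads or more of the family. Most 5p reads of the other libraries were zma-MIR-398b-5p, a name that 9 of them listed and kiwifruit did not. A sequence listed in kiwifruit as mtr-MIR-5266, with 247 reads, was the start of the one listed elsewhere as zma-MIR-398b-5p, and both are shown.
mtr-MIR-5266 in kiwifruit: gGGGGACGgactggg
zma-MIR-398b-5p in Hami melon: gGGGGACGgactgggaa

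Counting those 247 reads as MIR-398 would give 287 reads of 5p and a 5p share of 17.4%, which lies within the range of the other libraries. The apparent absence of MIR-5266 from the other 10 libraries, and of zma-MIR-398b-5p from kiwifruit, therefore does not hold for the sequence. Its share was 0.0653% in kiwifruit under the first name, against a median of 0.120% and a highest share of 4.02%, in tomato, under the second.

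The listed sequence matched the reference of its name exactly for 49 of the 117 kiwifruit names, and these held 91.6% of the reads. A further 11 names had no mismatch but another length, 45 had 1 or 2 mismatches, and 12 had more than 2 when aligned without gaps. Those 12 had 290 reads in all, and with gaps allowed 5 of them still needed more than 2 edits. Among abundant names, mdm-MIR-535d carried G20T, osa-MIR-530-5p carried A20G, sly-MIR-482a carried A12C and A22T, and mtr-MIR-168c-3p carried C1T and C5G. For mtr-MIR-168c-3p the seed changed with it, as the pair of sequences shows, and none of the 8 other libraries that listed this name gave the kiwifruit form.
mtr-MIR-168c-3p in kiwifruit: tCCGGCTTgcatcaactgaat
mtr-MIR-168c-3p in orange: cCCGCCTTgcatcaactgaat

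Of the 82 kiwifruit names listed elsewhere, 49 had the same sequence in at least 1 other library and 33 had a sequence that no other library gave under that name. The name mdm-MIR-535d had such a sequence, since orange listed it with 8 reads and pear with 7 reads, each with another sequence. In contrast, mtr-MIR-396a-5p was the same in each of the 6 other libraries that listed it.

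The library listed 35 names that no other plant did, against a median of 18.5 (range 2 in coconut to 50 in tomato). They were 29.9% of its names but 1.06% of its reads, and their median was 18 reads. The 5 with 100 reads or more were gra-MIR-172a (1729), osa-MIR-530-5p (672), smo-MIR-408 (272), mtr-MIR-5266 (247) and gma-MIR-159a-5p (237), and these lay above the level of 5 reads in each of the other 10 libraries. For 19 of the 35 names, 5 reads in at least 5 of the other libraries already stood for more RPM than the name had in kiwifruit, and for 6 names this held in all 10. The family of 30 of the 35 was listed elsewhere, and that of the other 5 was not. For 5 of the 35 names (smo-MIR-408, mtr-MIR-5266, ath-MIR-390a-3p, mtr-MIR-156g-3p and bra-MIR-9560b-3p) another library listed the same sequence, or a longer or shorter form of it, under a different name. Near forms with a mismatch are not among these 5. Counted in mismatches and overhanging bases, the nearest sequence elsewhere was 1 away for mdm-MIR-535b and lja-MIR-171c and 2 for osa-MIR-530-5p. It was 3 away for gra-MIR-172a, 7 for gma-MIR-159a-5p and at most 10, for gma-MIR-828b.

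**Figure D4:**
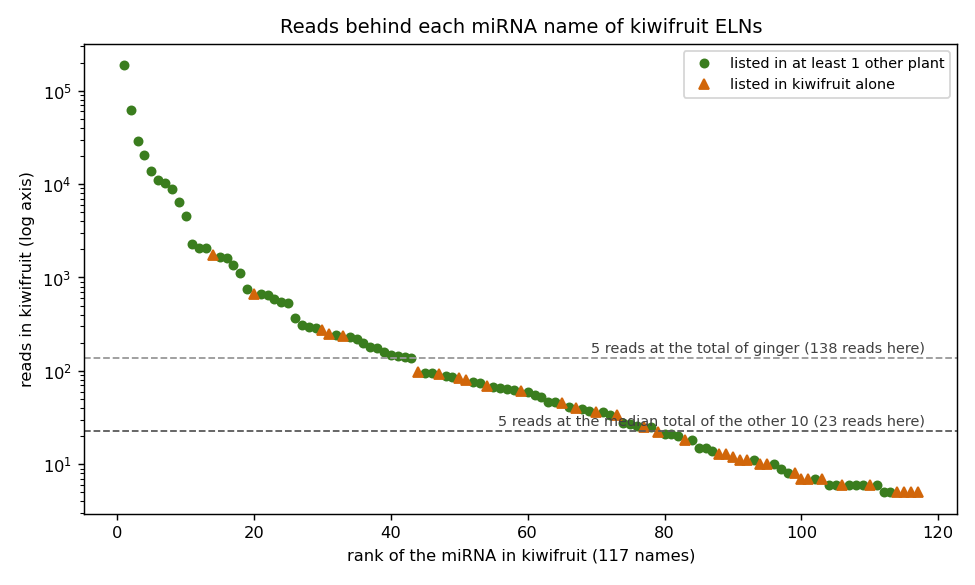
Reads behind each of the 117 kiwifruit names (log axis) against their rank. Circles are names listed in at least 1 other plant and triangles the 35 listed in kiwifruit alone, and dashed lines mark the reads that would leave 5 at the read total of ginger (138 reads) and at the median total of the other 10 (23 reads). Most triangles lie below the upper line.

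How many of the kiwifruit names would have been listed at a lower depth was computed by scaling their reads to the recovered total of another library, which matches neither the miRNA reads nor the reads sequenced. Scaled by the filtered high quality reads instead, a choice made after seeing the data, 111 names were left at the median of the other 10 and 97 at the lowest, so the losses given next hold for the recovered totals only. At the median total of the other 10 libraries a name needed 23 reads here to keep 5, and 78 of 117 names and 42 of 53 families were left. The 39 names that fell below held only 0.105% of the miRNA reads. They were 4 names at 20 to 22 reads, 14 at 10 to 18 reads and 21 at 5 to 9 reads. The first 4, osa-MIR-396h, mdm-MIR-391, mtr-MIR-167b-3p and gma-MIR-171j-5p, were close to the line, with a binomial chance of 47.4% to 56.6% of keeping 5 reads or more.

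The next 14 names were mtr-MIR-156g-3p, osa-MIR-408-3p, ath-MIR-399d, osa-MIR-166i-5p, ath-MIR-165a-3p, hvu-MIR-6187, zma-MIR-156a-3p, zma-MIR-395h-5p, ata-MIR-319-5p, bdi-MIR-171a, osa-MIR-166e-3p, aly-MIR-399a-5p, bra-MIR-9560b-3p and gma-MIR-1507a. At 9, 8 or 7 reads were bdi-MIR-399d, bdi-MIR-162, gma-MIR-169l-3p, ata-MIR-172c-5p, the apple name (mdm) of MIR-396a, mtr-MIR-396a-3p and osa-MIR-169n. At 6 reads were aly-MIR-167b-3p, bdi-MIR-319b-3p, bdi-MIR-7725a-5p, bra-MIR-168c-5p, gma-MIR-1509a, mdm-MIR-171a, osa-MIR-2118i and vvi-MIR-3634-3p. At 5 reads, the lowest listed, were ath-MIR-162b-5p, gma-MIR-390d, gma-MIR-828b, ptc-MIR-473a-5p, sly-MIR-169e-5p and zma-MIR-164f-3p. With them 11 families were lost whole, MIR-165, MIR-391, MIR-473, MIR-828, MIR-1507, MIR-1509, MIR-2118, MIR-3634, MIR-6187, MIR-7725 and MIR-9560.

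At the read total of ginger, the lowest of the 11, a name needed 138 reads and 42 names in 29 families were left, against 32 names that ginger listed. The 36 further names lost ran from gma-MIR-159d with 137 reads down to sly-MIR-319c-5p and ptc-MIR-171l-5p with 25 reads each. With those lost before, all 7 names of MIR-156 and all 8 of MIR-171 were then gone, as were the families MIR-160, MIR-393, MIR-394, MIR-395 and MIR-2111. The families MIR-1029, MIR-1150, MIR-1512, MIR-6300, MIR-6478 and MIR-8155, with 1 name each, were also lost whole. The 75 names below 5 reads at that total held 0.666% of the kiwifruit miRNA reads, and ginger itself listed 8 of them. MIR-396, MIR-159, MIR-166, MIR-162, MIR-5054, MIR-7122, MIR-403, MIR-535, MIR-168 and MIR-172 were all kept. Of the 35 names in kiwifruit alone, 16 were left at the median total and 5 at that of ginger. At the total of orange, the second highest, 14 names fell below 5 reads.

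**Figure D5:**
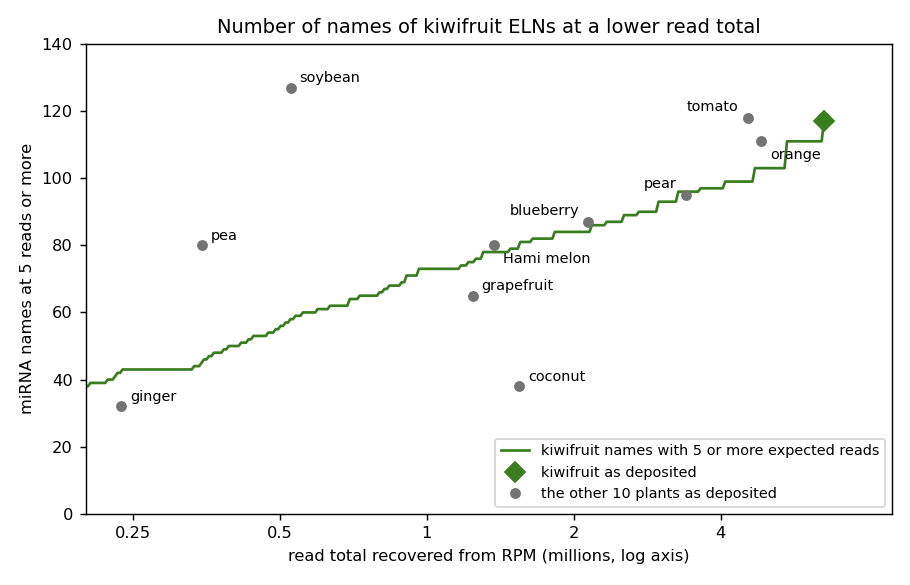
Number of kiwifruit names with 5 or more expected reads (line) as the read total falls (log axis). The diamond is kiwifruit as deposited and circles are the other 10 plants as deposited. Blueberry, pear and Hami melon lie close to the line, soybean, pea, tomato and orange above it, and coconut, grapefruit and ginger below it.

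At the read total of blueberry kiwifruit would keep 84 names, against the 87 that blueberry listed. It would keep 78 names against 80 in Hami melon and 96 names against 95 in pear. These 3 plants listed about as many names as kiwifruit would at the same recovered total, although their miRNA reads were not matched. At the total of soybean kiwifruit would keep 58 names against 127 in soybean, at that of pea 45 names against 80 in pea, and at that of coconut 79 names against 38 in coconut. Matched on miRNA reads instead, at the 4541 miRNA reads of coconut, 25 kiwifruit names were left against the 38 names of coconut.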

How the data were processed

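Small RNA of vesicles from 11 plants was sequenced on an Illumina HiSeq, 1 library per plant. Vesicles were pelleted by differential centrifugation, and RNA was taken with TRIzol LS. The authors filtered the reads, matched them by MIRPIPE against the plant entries of miRBase 21.0, allowing up to 2 mismatches, and deposited levels in RPM, reads scaled to a total per library, with 1 sequence per name and library. Near-identical names can trade reads in such an assignment, and names and arms are those of other species. Which reads form that total is not given in the sources used here; it was below the high quality reads of every library, which served as an alternative depth.

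The merged table was used, and all 950 values above 0 were the same in the files of single libraries. All 950 were whole multiples of 1 read within 0.01 of a read, which gave the reads and totals. Shares are of the summed miRNA reads. Intervals are 95% Wilson, or exact binomial for arms. With 1 library per plant no test was made. Mismatches were counted by sliding without gaps, and an arm was set by match with at least 16 overlapping bases and at most 4 mismatches. Expected reads at lower depth were scaled by the recovered totals, with the chance of 5 or more from a binomial. The scripts were tested on simulated data with known answers (scipy 1.17.1 and pandas 2.3.3 under Python 3.11.15).

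Names in the text are the highest members of each family or target group, those in kiwifruit alone, those 4-fold from the median and those lost at lower depth. The members, target groups and lists were chosen with earlier results of these data known. Members singled out for sequence or naming were chosen after their values were seen. No genome was used, so no position is given.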

Additional observations from a re-analysis of the deposited data

How the results depend on the processing

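The number of names listed in kiwifruit was 117. It was 36 when only names at or above 29.5 RPM counted, the highest of the smallest values that any library lists, 42 at 5 expected reads at the lowest read total, and 25 at equal miRNA reads. The names in kiwifruit alone were 35, and 12 at that RPM minimum, 15 when every library was brought to the lowest read total, and 5 by family. The MIR-396 share was 49.4%, and 51.6% without the families that resemble tRNA or rRNA pieces and 51.5% with names of at least 18 nt only. Without these families the share of 20 to 22 nt was 99.9% in place of 96.0%, and the level in common with Hami melon 42.8% in place of 43.2%. By name that level was 30.7%, and orange was then highest at 32.6%. The families highest in kiwifruit were 13, and 8 at the lowest read total. Leaving out 1 of the other 10 libraries each time gave 13 to 15. The names 4-fold from the median were 29 (7 higher, 22 lower), and 15 on the scale log2(RPM + 10) (7 higher, 8 lower). The split was 7 higher and 19 lower by RPM, 7 and 15 on the scale log2(RPM + 1), and 12 and 24 at 2-fold. The 5p share of MIR-172 was 58.6%, and 28.8% by names that carry an arm. The cause of these differences was not tested beyond what each setting leaves out. The other 35 alternatives moved their result by at most 1.5 times for a count, or within the counting interval for a share. Among them, the fall from 117 to 78 names at the median read total of the other 10 lies at that limit of 1.5 times. The 35 also include counting by family, scaling by high quality reads and allowing gaps (112 names within 2 edits in place of 105 within 2 mismatches). These last settings were chosen after seeing the data. No paired analysis was possible because each plant has 1 library. Depth limits the 39 names under 23 reads most.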

Other observations

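Several pairs of kiwifruit names were close to reverse complements of each other. The arms of a hairpin precursor pair in this way. The names ath-MIR-403-3p and sly-MIR-403-5p matched over 19 bases with no mismatch, with 8812 and 148 reads. The names ath-MIR-390a-5p and ath-MIR-390a-3p matched over 19 bases with 2 mismatches, with 550 and 34 reads. The name aau-MIR-168, with 26 reads and no arm, matched mtr-MIR-168c-3p over 18 bases with 2 mismatches.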
